A study of Mus musculus with 2 samples.

Results

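The genes described here are 8 components of the TGF-beta and activin pathway, Tgfb1, Tgfbr1, Tgfbr2, Acvr2a, Smad3, Smad7, Ski and Skil. They were chosen by symbol, are 8 of the 32285 genes of the matrices, and each symbol occurs once. TGF-beta is secreted in a latent form, released by integrins and proteases, and bound by the type II receptor Tgfbr2, which activates the type I receptor Tgfbr1. The activated receptors phosphorylate Smad2 and Smad3, which enter the nucleus with Smad4. Activins, dimers of inhibin beta chains such as Inhba, use the type II receptors Acvr2a and Acvr2b and reach the same Smads. Smad7, Ski and Skil restrain the signal. In T cells TGF-beta is known for inducing Foxp3, for helping to induce Th17 cells together with inflammatory cytokines, and for raising the residency integrin chain Itgae.

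The data are 2 droplet single-cell libraries of RNA molecules tagged at the 3′ end, 1 for each group of bone marrow chimeric mice. LYZKL mice received Tmem173fl/fl;Lyz2-Cre bone marrow and WTKL mice Tmem173fl/fl bone marrow. All recipients were lethally irradiated KrasLSL-G12D/+ Lkb1fl/fl animals that were given Ad-Cre through the nose, and cells were taken from their tumour-bearing lungs 8 weeks later. Tmem173 encodes the DNA-sensing adaptor STING, Lyz2-Cre is active in cells of the myeloid lineage, and Ad-Cre is an adenovirus that delivers Cre recombinase to the lung and so starts the tumours. Tamoxifen is named among the treatments of WTKL but not of LYZKL. The number of mice behind each library is not given in the labels. Ages are not given either.

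With 1 library per group, no spread between animals can be measured, so p-values are left out and the intervals show counting error alone. LYZKL had 93584629 unique molecular identifiers (UMIs, counts of tagged RNA molecules) over 13607 barcodes, and WTKL 77181312 over 12204, where the labels state 7202 and 6609 cells. After removal of barcodes under 500 genes or over 10% mitochondrially coded UMIs, cells numbered 13451 in LYZKL and 12003 in WTKL, with medians of 5327 and 4840 UMIs per cell, and the libraries shared 100 barcode sequences. The labels name a sort for CD4 and for CD8. Marker gates placed 68.0% of LYZKL and 70.7% of WTKL cells in the T lineage, and macrophages or monocytes, neutrophils and B cells were also present. Of 42 checks of marker genes that the gates did not use (21 genes in each library), 36 were highest in their own class. The exceptions in both libraries were Cd5 and Icos, which were highest in Treg cells, and Cd14, which was highest in neutrophils. No lineage was given to 13.8% of LYZKL and 11.1% of WTKL cells.

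Tmem173 itself, the floxed gene, was at 5.95 UMIs per 1000000 UMIs of the class (CPM) in LYZKL neutrophils and 21.4 CPM in WTKL neutrophils. In macrophages and monocytes it was at 32.1 CPM in LYZKL and 44.4 CPM in WTKL. In CD4 conventional T cells, where Lyz2-Cre is not known to act, it was at 46.5 CPM in LYZKL and 23.2 CPM in WTKL. The floxed exons are not named in the labels, so a 3′ tag may lie outside the deleted stretch and would then not report the deletion.

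Cells were compared in 6 classes. LYZKL held 634 Treg, 3691 CD4 conventional, 2977 CD8, 832 macrophage or monocyte and 1238 neutrophil cells, against 549, 3922, 2146, 486 and 1158 in WTKL. A sixth class, T cells with no UMI of Cd4, Cd8a, Cd8b1, Foxp3 or Trdc, held 976 LYZKL and 1158 WTKL cells and is called untyped T here. The gate for gamma-delta T cells held 12 LYZKL and 11 WTKL cells and was not compared. Levels are in CPM. A difference is the log2 ratio of LYZKL over WTKL with its exact 95% counting interval, and a gene counts as measured if its higher level is 5 CPM or more and both libraries together hold 50 UMIs.

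All 8 genes were measured in all 6 classes. The difference that stood out was in Acvr2a, which was 2.01-fold lower in LYZKL than in WTKL among CD4 conventional cells and 2.85-fold lower among untyped T cells. The other 7 genes stayed within 1.5-fold in every class. Tgfbr2 was lower in LYZKL in 5 of the 6 classes and higher in CD8 cells, and Tgfb1 was higher in LYZKL CD4 conventional cells and lower in LYZKL neutrophils.

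Past 1.5-fold were 0 of the 8 genes in Treg cells, against 7.87% of all measured genes. The count was 1 of 8 in CD4 conventional cells against 5.81% of genes, 1 of 8 in CD8 cells against 10.8%, and 1 of 8 in untyped T cells against 7.59%. It was 0 of 8 in macrophages and monocytes against 10.4% and 0 of 8 in neutrophils against 11.1%. The single gene was Acvr2a each time. At a looser fold, a log2 ratio of 0.32 or more either way, the counts were 1 of 8 in Treg cells (26.4% of all measured genes), 1 in CD4 conventional cells (19.1%), 1 in CD8 cells (28.8%), 1 in untyped T cells (24.9%), 0 in macrophages and monocytes (29.2%) and 4 in neutrophils (31.4%). Counting intervals excluded 0 for 3 of the 8 genes in Treg cells (24.8% of all measured genes), 5 in CD4 conventional cells (50.3%), 5 in CD8 cells (50.6%), 4 in untyped T cells (23.7%), 4 in macrophages and monocytes (33.6%) and 5 in neutrophils (28.8%). Among cells of 3000 to 8000 UMIs, 18 of these 26 intervals still excluded 0 on the same side and the other 8 spanned 0. The median log2 ratio of the 8 genes was -0.27 in neutrophils and -0.14 in Treg cells, where that of all measured genes was -0.04 and -0.02. In CD8 cells the median was 0.09 for the 8 genes and 0.11 for all measured genes.

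**Figure D1:**
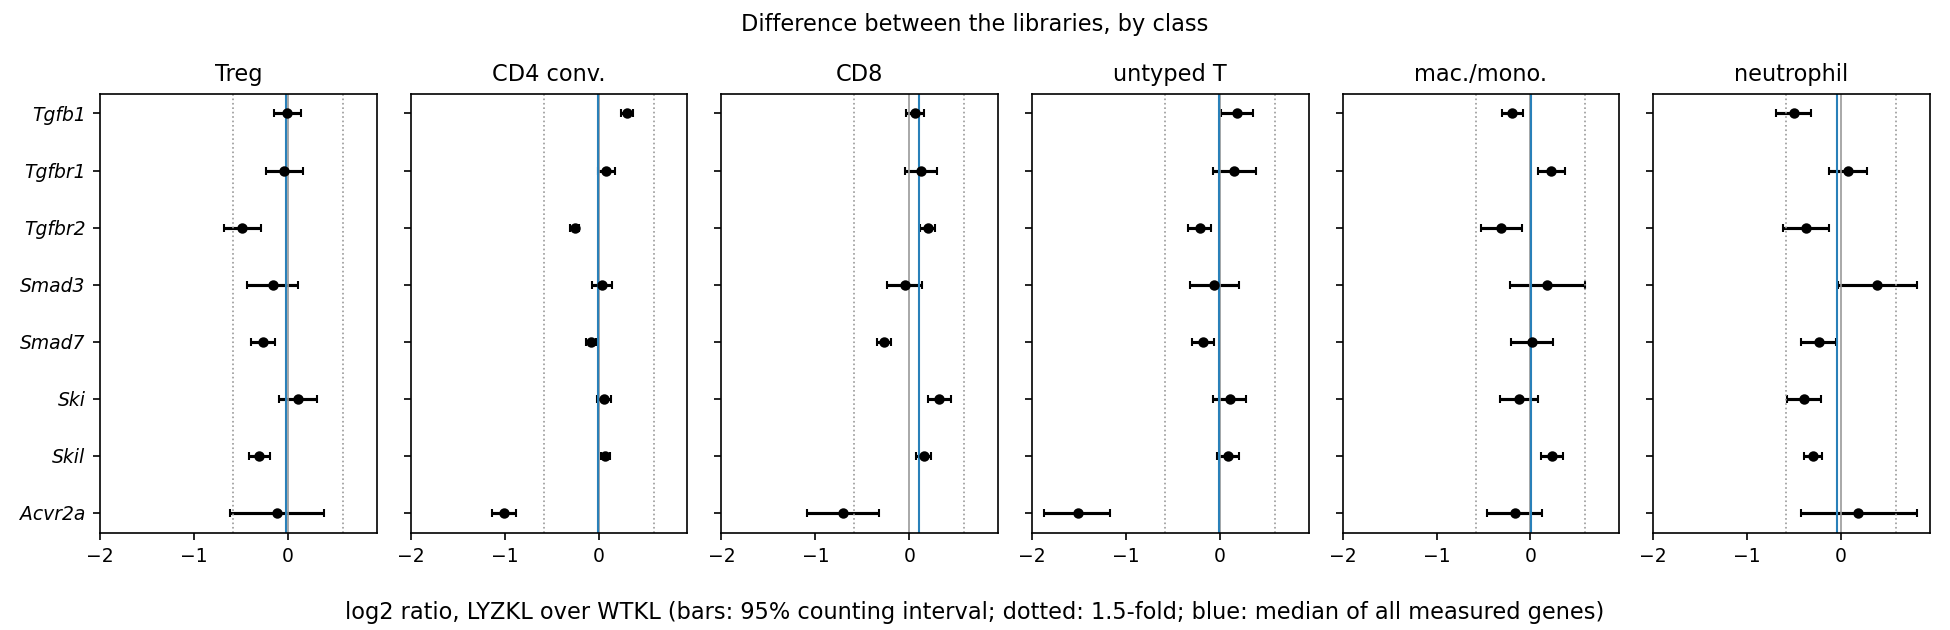
The log2 ratio of LYZKL over WTKL (x axis) for each of the 8 genes (y axis) in each of 6 cell classes, with 95% counting intervals as bars, dotted lines at 1.5-fold and the median of all measured genes in blue. Acvr2a lies at -1.01 in CD4 conventional and -1.51 in untyped T cells, and the other genes lie inside the dotted lines in every class.

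Acvr2a encodes a type II receptor for activins and some bone morphogenetic proteins and lies on chromosome 2 (chr2:48814109-48903269, plus strand, GRCm38). It overlaps Orc4 on the opposite strand. In CD4 conventional cells its level was 27.6 CPM in LYZKL (759 UMIs) and 55.5 CPM in WTKL (1232 UMIs), a log2 ratio of -1.01 (95% interval -1.14 to -0.88). Only 49 of the 9609 genes measured in that class had a lower ratio. Orc4, with which antisense reads could be confused, was at 50.8 CPM in LYZKL and 50.3 CPM in WTKL in the same cells.

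By subset, the interval of Acvr2a excluded 0 in 3 of the 5 CD4 conventional subsets. Th17-type cells, gated mainly on a UMI of Il17a, Il17f or Il22, had 30.2 CPM in LYZKL and 66.6 CPM in WTKL (log2 ratio -1.14, interval -1.30 to -0.98). Th1-type cells, gated on Tbx21 or Ifng, had 18.2 CPM in LYZKL and 32.9 CPM in WTKL (log2 ratio -0.85, interval -1.46 to -0.24). CD4 cells that entered no named subset had 36.2 CPM in LYZKL and 68.6 CPM in WTKL (log2 ratio -0.92). Naive-type cells, whose gate includes Ccr7, had 21.1 CPM in LYZKL and 24.6 CPM in WTKL, and Izumo1r-positive cells had 16.03 CPM in LYZKL and 16.68 CPM in WTKL, with intervals that span 0 in both subsets. Whether the subsets differ from each other in their ratios was not tested.

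Within the Th17-type cells, those with a UMI of Il17a or Il17f had 30.9 CPM of Acvr2a in LYZKL (1633 cells) and 69.4 CPM in WTKL (1932 cells). Those with Il22 but neither Il17 gene had 26.3 CPM in LYZKL (155 cells, 33 UMIs) and 24.2 CPM in WTKL (104 cells, 18 UMIs), a difference that was not detectable at this depth (log2 ratio 0.12, interval -0.75 to 1.03). The summed level of Il17a and Il17f in Th17-type cells was 2232 CPM in LYZKL and 2797 CPM in WTKL, and it moved in the same direction as Acvr2a. Its part in the result was not tested.

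Among untyped T cells Acvr2a was at 19.4 CPM in LYZKL and 55.4 CPM in WTKL (log2 ratio -1.51, interval -1.87 to -1.17), and 13 of 9345 measured genes had a lower ratio. The IL-17-type cells of this class had 29.5 CPM in LYZKL (43 UMIs) and 85.4 CPM in WTKL (176 UMIs). The remaining untyped cells had 15.02 CPM in LYZKL and 33.1 CPM in WTKL. In the IL-17-type cells the sum of Il17a and Il17f was 1911 CPM in LYZKL and 3363 CPM in WTKL, and that of the T cell receptor constant genes 2016 and 2506 CPM, and their part in the result was not tested. IL-17-type cells made up 26.5% of the class in LYZKL and 39.3% in WTKL. With both subsets given the same weight in both libraries, the ratio was -1.35.

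The same order appeared as shares of cells. After every cell was thinned to 2000 UMIs, which left out 38 LYZKL and 69 WTKL cells, 4.76% of LYZKL (exact 95% interval 4.10 to 5.51) and 10.2% of WTKL (9.26 to 11.2) CD4 conventional cells had an Acvr2a UMI. Without thinning the shares were 14.7% in LYZKL and 21.2% in WTKL, at medians of 6387 and 4910.5 UMIs per cell. B cells, taken as a class low in Acvr2a, gave 2.54% in LYZKL and 0.79% in WTKL after thinning, at medians of 3482 and 3117 UMIs. Th17-type cells gave 5.64% in LYZKL and 12.8% in WTKL.

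CD8 cells held little Acvr2a, with 5.92 CPM in LYZKL and 9.64 CPM in WTKL (log2 ratio -0.70, interval -1.09 to -0.32). Their thinned share was 1.44% in LYZKL and 2.10% in WTKL. The LYZKL share was below that of LYZKL B cells, while the WTKL share was above that of WTKL B cells. These shares therefore do not settle whether the UMIs in CD8 cells are expression, and they are not read as such. The only CD8 subset whose interval excluded 0 was the cells outside the named subsets, where the level was 7.67 CPM in LYZKL (26 UMIs) and 19.8 CPM in WTKL (60 UMIs). Those cells also had less Il17a and Il17f in sum, 195 CPM in LYZKL and 373 CPM in WTKL, and less of the plasma cell gene Jchain, 18.3 CPM in LYZKL and 1274 CPM in WTKL. Their part in the difference was not tested.

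Treg cells had 15.7 CPM of Acvr2a in LYZKL and 17.1 CPM in WTKL, and neutrophils had 9.92 and 8.72 CPM, with intervals that span 0. Macrophages and monocytes had 25.5 CPM in LYZKL and 28.7 CPM in WTKL (log2 ratio -0.17, interval -0.46 to 0.13). Inside that class the C1q macrophages had 16.9 CPM in LYZKL (47 UMIs) and 30.5 CPM in WTKL (71 UMIs), with a log2 ratio of -0.85 (interval -1.42 to -0.30), while the Saa3 or Cfb macrophages had 30.1 and 29.5 CPM. T cell receptor constant genes in C1q macrophages summed to 200 CPM in LYZKL and 324 CPM in WTKL, and Orc4, the overlapping gene, was at 15.1 and 23.2 CPM there (log2 ratio -0.62, interval -1.24 to -0.01). Their part in the lower Acvr2a value was not tested.

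**Figure D2:**
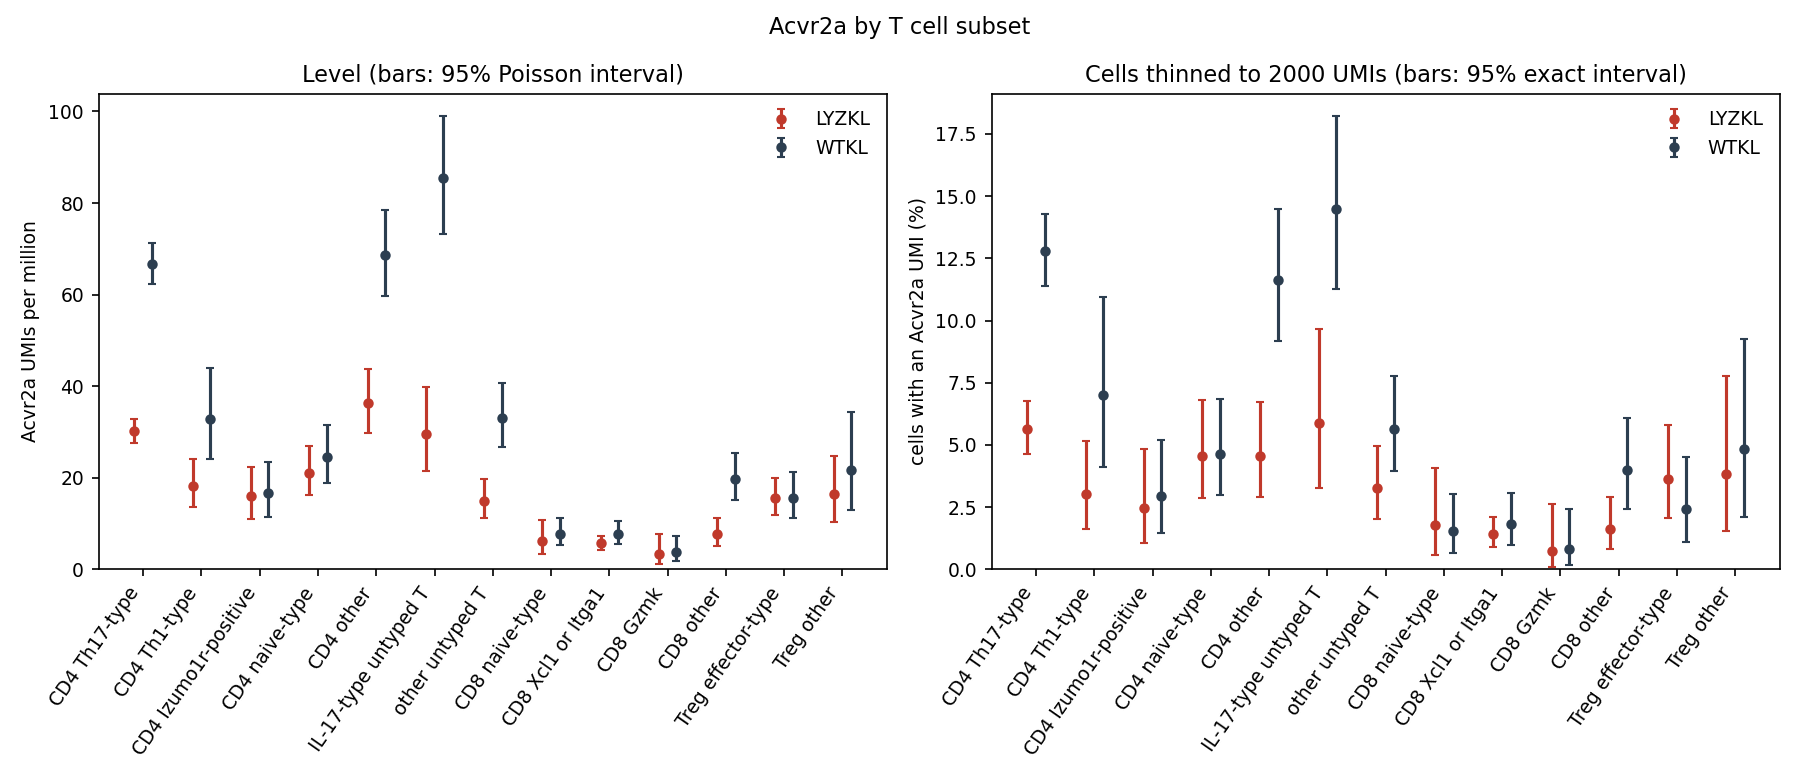
Acvr2a in 13 T cell subsets, LYZKL in red and WTKL in dark blue. The left panel gives CPM with 95% Poisson intervals and the right panel the percentage of cells with an Acvr2a UMI after thinning to 2000 UMIs with exact 95% intervals. Th17-type CD4 cells lie at 30.2 CPM in LYZKL and 66.6 CPM in WTKL, and the Izumo1r-positive and naive-type CD4 cells overlap.

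Tgfbr2, the type II receptor that binds TGF-beta (chr9:116084293-116175360, minus strand), had its highest level in CD4 conventional cells and its lowest in macrophages and monocytes in both libraries. The order was CD4 conventional, B, CD8, Treg, neutrophil, macrophage or monocyte in each, and the highest level was 4.83 times the lowest in LYZKL and 4.66 times in WTKL. Intervals of B and CD8 cells overlapped in both libraries, as did those of neutrophils and macrophages. In LYZKL the intervals of CD4 conventional and B cells overlapped too.

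Treg cells had 84.5 CPM of Tgfbr2 in LYZKL (446 UMIs) and 118 CPM in WTKL (401 UMIs), a log2 ratio of -0.49 (interval -0.68 to -0.29). Both Treg subsets lay in that direction, with 84.3 CPM in LYZKL and 112 CPM in WTKL for cells with Il1rl1, Areg or Klrg1, and 84.9 and 137 CPM for the others. CD4 conventional cells had 217 CPM in LYZKL and 260 CPM in WTKL (log2 ratio -0.26, interval -0.31 to -0.20), of which the Th17-type cells had 209 and 262 CPM. Th1-type cells, with 226 CPM in LYZKL and 230 CPM in WTKL, and Izumo1r-positive cells, with 207 and 224 CPM, had intervals that span 0.

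CD8 cells lay on the other side, with 180 CPM of Tgfbr2 in LYZKL and 157 CPM in WTKL (log2 ratio 0.20, interval 0.12 to 0.27). The median of all measured genes in CD8 cells was itself at 0.11, and with edgeR's TMM scaling the Tgfbr2 ratio was 0.10. CD8 naive-type cells, which were 9.61% of CD8 cells in LYZKL and 24.4% in WTKL, had 185 CPM in LYZKL and 147 CPM in WTKL. Cells with Xcl1 or Itga1, which were 56.2% of CD8 cells in LYZKL and 34.0% in WTKL, had 179 and 155 CPM.

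In myeloid cells Tgfbr2 was low. Macrophages and monocytes had 45.0 CPM in LYZKL and 55.7 CPM in WTKL (log2 ratio -0.31, interval -0.53 to -0.10), and neutrophils had 47.8 and 61.9 CPM (log2 ratio -0.37). The macrophages with Ear2 or Fabp4, genes of alveolar macrophages, had 45.4 CPM in LYZKL (64 cells, 41 UMIs) and 89.7 CPM in WTKL (68 cells, 78 UMIs), with a log2 ratio of -0.98 (interval -1.57 to -0.42). T cell receptor constant genes, which should be absent from myeloid cells, were also lower in LYZKL, at 93.5 CPM in LYZKL and 177 CPM in WTKL macrophages and monocytes and at 117 and 170 CPM in neutrophils. Since Tgfbr2 is higher in T cells, their RNA moves with this result, and its part was not tested.

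Tgfbr1, the type I receptor kinase that Tgfbr2 activates (chr4:47353222-47414931, plus strand), had its highest value in macrophages and monocytes, at 131 CPM in LYZKL and 113 CPM in WTKL (log2 ratio 0.22, interval 0.09 to 0.36). Among macrophages and monocytes of 3000 to 8000 UMIs the ratio was -0.10 with an interval that spans 0. Treg cells had 103 CPM in LYZKL and 106 CPM in WTKL, which in WTKL overlapped the interval of macrophages and monocytes, and CD8 cells were lowest with 37.6 and 34.5 CPM. CD4 conventional cells had 75.3 CPM in LYZKL and 71.0 CPM in WTKL, with an interval that spans 0. Among CD4 subsets the interval excluded 0 in Th1-type cells, with 81.7 CPM in LYZKL (224 UMIs) and 47.6 CPM in WTKL (65 UMIs), a log2 ratio of 0.78 (interval 0.38 to 1.20). Cells with Xcl1 or Itga1 among the CD8 cells had 38.4 CPM in LYZKL and 29.2 CPM in WTKL (log2 ratio 0.39, interval 0.12 to 0.67).

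**Figure D3:**
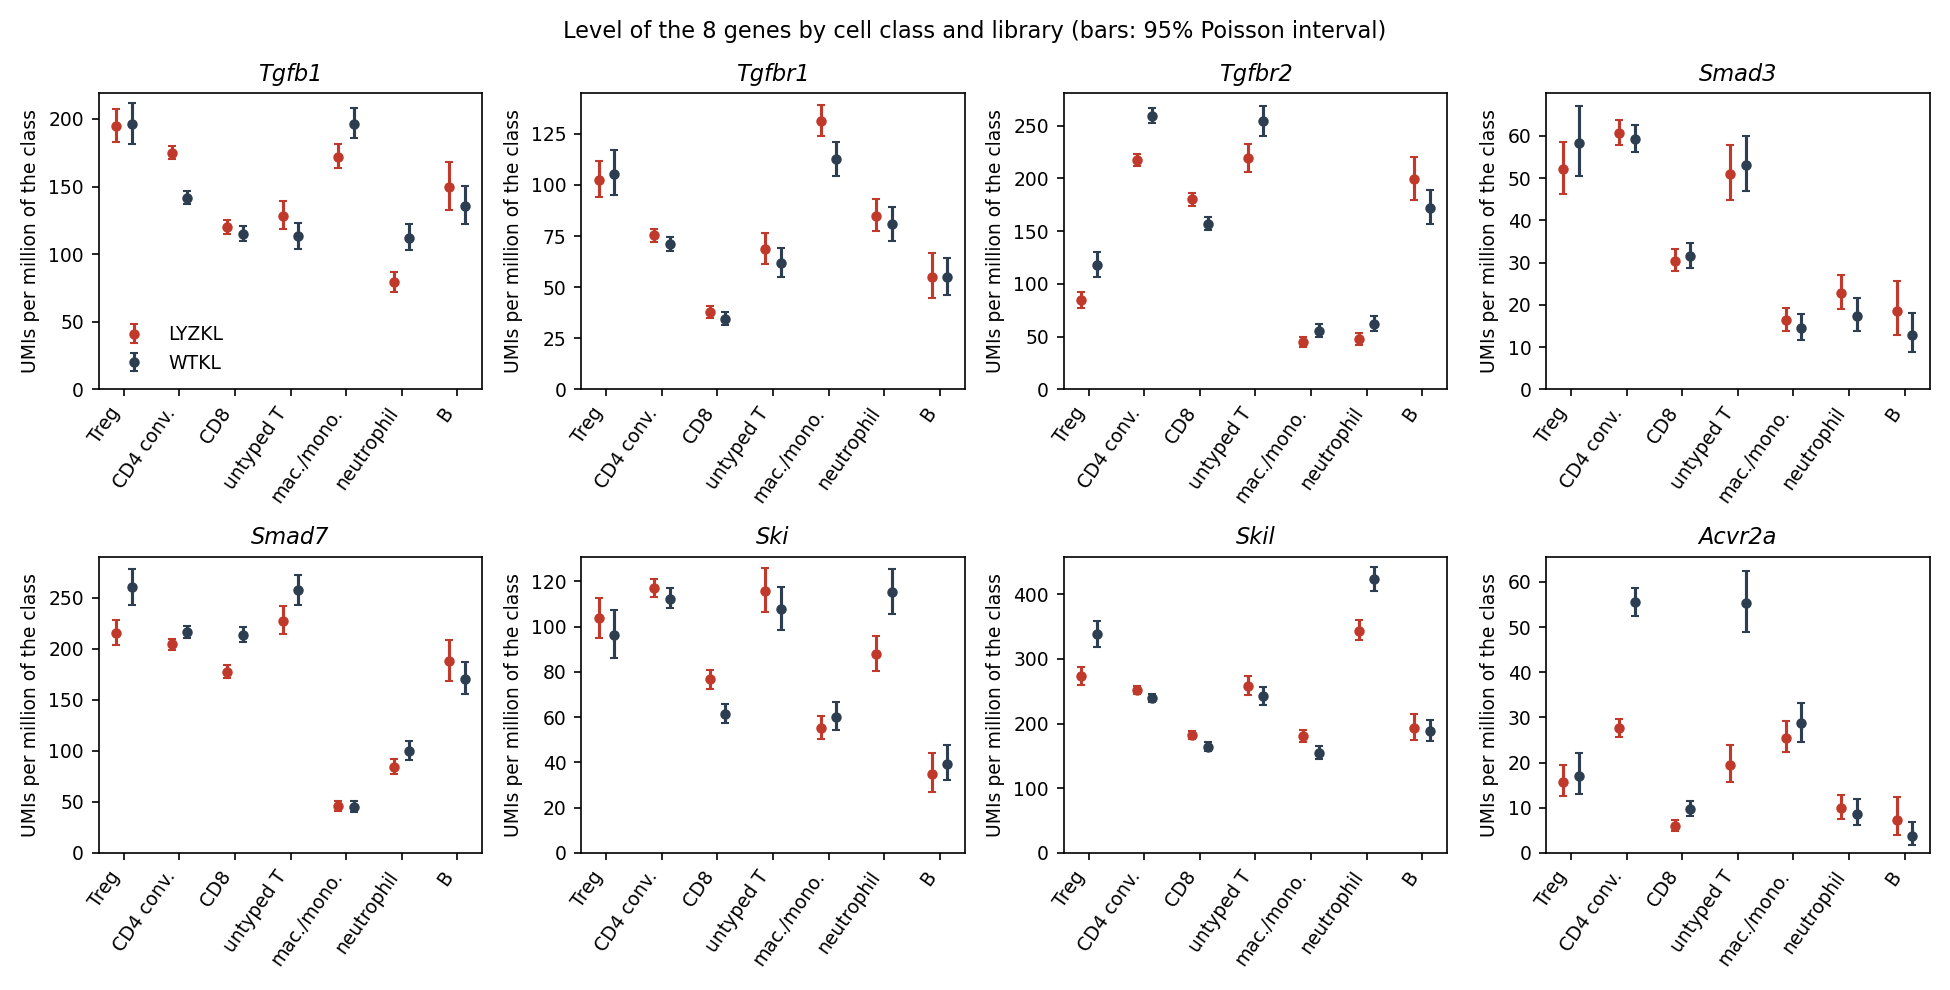
CPM of each of the 8 genes in 7 cell classes, LYZKL in red on the left and WTKL in dark blue on the right of each pair, with 95% Poisson intervals. Tgfbr2 is at 217 CPM in LYZKL and 260 CPM in WTKL CD4 conventional cells and near 50 CPM in the myeloid classes, and Skil is highest in neutrophils of both libraries.

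Tgfb1 encodes the TGF-beta 1 ligand (chr7:25687002-25705077, plus strand). CD4 conventional cells had 175 CPM in LYZKL (4821 UMIs) and 142 CPM in WTKL (3149 UMIs), a log2 ratio of 0.31 (interval 0.24 to 0.37). The Th17-type cells had 203 CPM in LYZKL and 159 CPM in WTKL and the Th1-type cells 184 and 153 CPM, while naive-type cells had 84.8 and 91.5 CPM with an interval that spans 0. Under the other settings the Th17-type ratio ranged from 0.35 to 0.42. The Th1-type ratio of 0.26 became 0.01 without cycling cells, those with a UMI of Mki67 or Top2a. Among Th1-type cells of 3000 to 8000 UMIs it was 0.28 with an interval that spans 0. IL-17-type untyped T cells had 157 CPM in LYZKL and 124 CPM in WTKL (log2 ratio 0.35, interval 0.08 to 0.61). In Th17-type and untyped IL-17-type cells alike, the ligand was higher in LYZKL and Acvr2a lower.

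Treg cells had 195 CPM of Tgfb1 in LYZKL and 196 CPM in WTKL (log2 ratio -0.01, interval -0.15 to 0.13). CD8 cells had 120 CPM in LYZKL and 115 CPM in WTKL (log2 ratio 0.06, interval -0.03 to 0.16), and given the same subset weights in both libraries the CD8 ratio was -0.08. Macrophages and monocytes had 172 CPM in LYZKL and 197 CPM in WTKL (log2 ratio -0.19, interval -0.30 to -0.08), of which C1q macrophages had 154 and 189 CPM. Among cells of 3000 to 8000 UMIs the interval spans 0 in both, at -0.06 in the class and, over 25 LYZKL and 18 WTKL cells, at 0.89 in C1q macrophages. Neutrophils had 79.1 CPM in LYZKL (439 UMIs) and 112 CPM in WTKL (515 UMIs), a log2 ratio of -0.50 (interval -0.69 to -0.32).

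Smad3 carries the signal of TGF-beta and activin receptors into the nucleus (chr9:63646767-63757994, minus strand). CD4 conventional cells had 60.8 CPM in LYZKL and 59.3 CPM in WTKL, and Treg cells, whose intervals overlapped theirs in both libraries, had 52.1 and 58.4 CPM. Th17-type cells had 71.8 CPM in LYZKL and 69.2 CPM in WTKL. The interval of its ratio spans 0 in all 6 classes. By subset, it excluded 0 in Treg cells outside the effector-type gate, with 43.9 CPM in LYZKL (59 UMIs) and 82.2 CPM in WTKL (68 UMIs), and in Gzmk-positive CD8 cells, with 25.8 CPM in LYZKL (39 UMIs) and 43.6 CPM in WTKL (103 UMIs). These were 2 of 18 subsets with at least 50 cells in each library.

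Smad7, an inhibitory Smad that TGF-beta itself induces and that blocks the type I receptor, lies on chromosome 18 (chr18:75367529-75395935, plus strand). Its level was lower in LYZKL than in WTKL in 16 of the 18 subsets, and the interval excluded 0 in 10 of them. These subsets share the same 2 libraries, and how many of all measured genes reach such a count was not computed. CD8 cells had 177 CPM in LYZKL and 214 CPM in WTKL (log2 ratio -0.27, interval -0.34 to -0.20), and Gzmk-positive CD8 cells had 184 and 254 CPM. Treg cells had 216 CPM in LYZKL and 260 CPM in WTKL (log2 ratio -0.27, interval -0.40 to -0.14). CD4 conventional cells had 204 CPM in LYZKL and 216 CPM in WTKL (log2 ratio -0.08). Among cells of 3000 to 8000 UMIs the Smad7 ratio was 0.01 in Treg and 0.02 in CD4 conventional cells, and the interval spans 0 in both classes and in neutrophils. By subset, some of the 16 moved above 0 in that window. The ratio was 0.07 in effector-type Treg cells, 0.10 in Th17-type cells and 1.17 in Saa3 or Cfb macrophages (7 WTKL UMIs). Others stayed below 0, at -0.67 in Gzmk-positive CD8 cells and -0.27 in naive-type CD4 cells. Macrophages and monocytes had 45.7 CPM in LYZKL and 45.2 CPM in WTKL. The LYZKL value includes 154 cells that no macrophage or monocyte sub-gate took, against 18 in WTKL, which had only 1329 CPM of Lyz2, Apoe and Ctss in sum in LYZKL and 3936 CPM in WTKL, and a median of 0.168% and 0.273% mitochondrially coded UMIs. Without them the Smad7 ratio in the class was -0.23.

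Ski, a co-repressor that binds the activated Smads (chr4:155154075-155222592, minus strand), was higher in LYZKL CD8 cells, at 76.7 CPM in LYZKL and 61.4 CPM in WTKL (log2 ratio 0.32, interval 0.20 to 0.45). All 4 CD8 subsets lay in that direction, but the interval excluded 0 only in the cells with Xcl1 or Itga1 (log2 ratio 0.33). In Gzmk-positive cells of 3000 to 8000 UMIs the ratio was -0.03. Of all genes measured in CD8 cells, 66.4% were higher in LYZKL. TMM scaling left the Ski ratio of the class at 0.23. In neutrophils Ski was lower, at 87.8 CPM in LYZKL and 115 CPM in WTKL (log2 ratio -0.39, interval -0.57 to -0.21). CD4 conventional and Treg cells had intervals that span 0.

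Skil, the Ski-related co-repressor SnoN and itself a known target of TGF-beta (chr3:31095058-31122577, plus strand), was highest in neutrophils, at 344 CPM in LYZKL and 424 CPM in WTKL (log2 ratio -0.30, interval -0.39 to -0.21). Treg cells had 273 CPM in LYZKL and 338 CPM in WTKL (log2 ratio -0.31, interval -0.42 to -0.19; -0.13 with an interval that spans 0 among cells of 3000 to 8000 UMIs), of which the effector-type ones had 282 and 355 CPM and the others 249 and 285 CPM with an interval that spans 0. Macrophages and monocytes had 181 CPM in LYZKL and 155 CPM in WTKL (log2 ratio 0.23, interval 0.11 to 0.34), but none of the C1q, Ear2 or Fabp4, and Saa3 or Cfb macrophages had an interval that excludes 0. Without the cells that no sub-gate took, which had 390 CPM of Skil in LYZKL and 244 CPM in WTKL, the class was at 165 and 153 CPM and its interval spans 0 (log2 ratio 0.11, interval -0.01 to 0.23). The CD8 level was 183 CPM in LYZKL and 164 CPM in WTKL.

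The summed level of 10 immediate early and heat shock genes, which rise when tissue is dissociated, moved with the neutrophil and Treg values of Skil. It was 7515 CPM in LYZKL and 11252 CPM in WTKL neutrophils, where 7 of the 10 genes were lower in LYZKL, and 4370 and 5687 CPM in Treg cells, where 9 of 10 were. In macrophages and monocytes the sum was 4684 CPM in LYZKL and 4597 CPM in WTKL. In CD4 conventional cells it was 4405 and 5131 CPM, and 8 of 10 genes were lower. The Skil ratio there went the other way, at 0.07 with an interval above 0. In CD8 cells the sum was 4233 CPM in LYZKL and 4202 CPM in WTKL, and the Skil ratio was 0.15 with an interval above 0. The median of all genes measured in CD8 cells was 0.11, and with TMM scaling the Skil ratio there was 0.06. The part of these stress genes in the differences of the 8 genes was not tested.

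**Figure D4:**
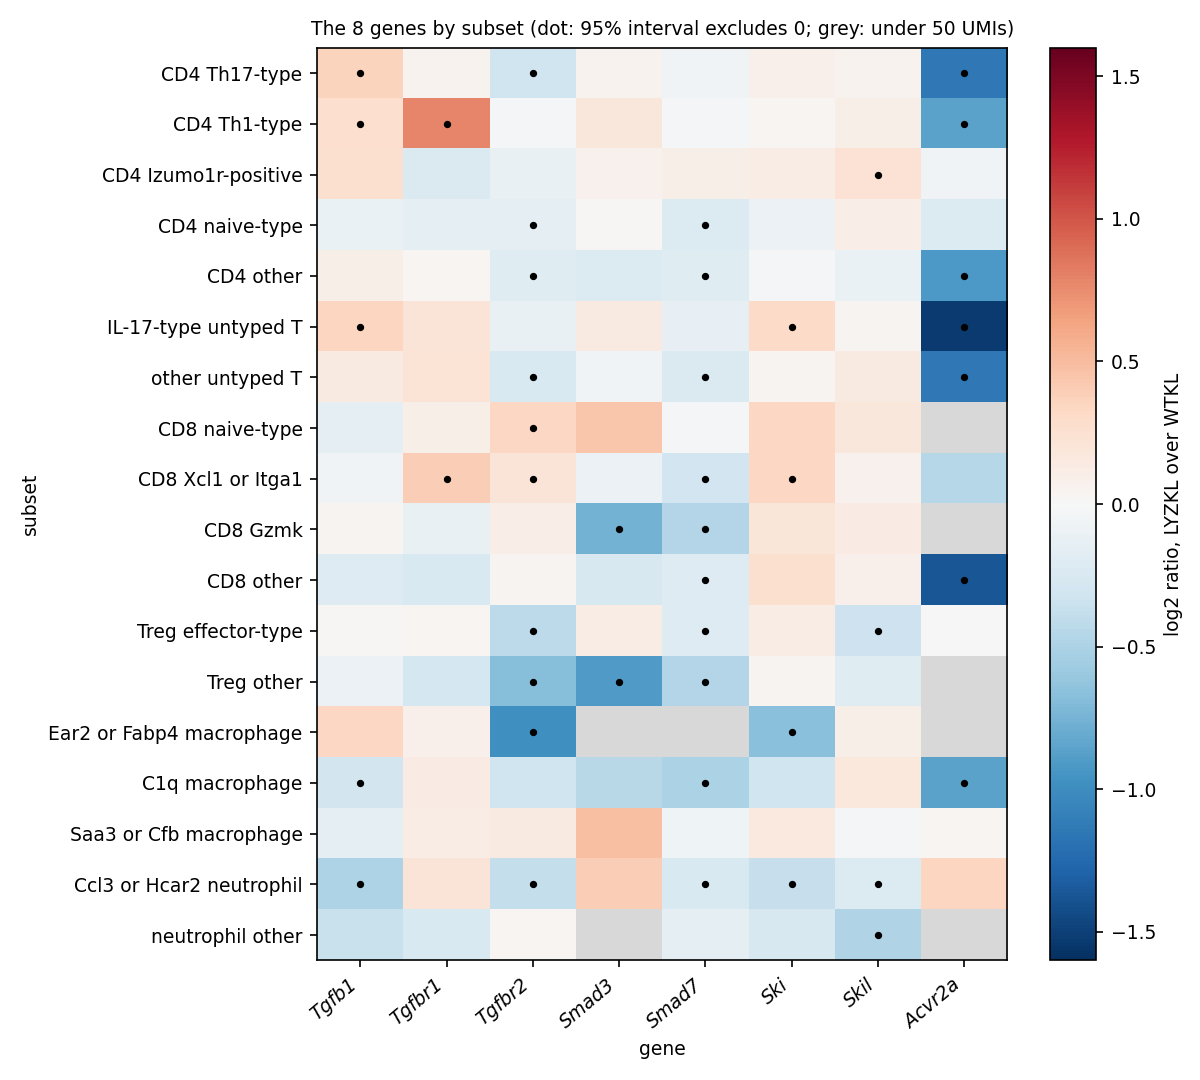
Log2 ratio of LYZKL over WTKL (colour) for each of the 8 genes (columns) in 18 subsets (rows), with a dot where the 95% counting interval excludes 0 and grey where the 2 libraries held under 50 UMIs together. The Acvr2a column is blue in Th17-type (-1.14) and untyped IL-17-type (-1.53) cells, and the Smad7 column lies below 0 in 16 of the 18 subsets.

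The genes whose levels followed each of the 8 most closely were found by Pearson correlation of log2(CPM + 10) over 34 points, each a subset in 1 library, among 7114 genes. The points share libraries, depth and the gates, so the values are descriptions. Acvr2a was followed by P2rx7, an ATP-gated channel (r = 0.77), Cept1, an enzyme of phospholipid synthesis (r = 0.72), and Il1r1, the interleukin 1 receptor (r = 0.71). In Th17-type cells P2rx7 was at 60.0 CPM in LYZKL and 90.3 CPM in WTKL, whereas Il1r1 was at 282 CPM in LYZKL and 238 CPM in WTKL.

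The genes close to Tgfbr2 included Ehd3 (r = 0.95) and Usp36 (r = 0.94). Smad7 was followed by Cnot2, Gpbp1l1 and N4bp2l2 with r of 0.95 each. Skil was followed by Gadd45b, a stress-induced gene (r = 0.93), Nfkbid (r = 0.89) and Tmem127 (r = 0.86), and Ski by Nr4a3 (r = 0.82), Erc1 and Tspan14 (r = 0.80 each). Smad3 was followed by Grap, Ttc39b and Znrf1 (r = 0.89, 0.89 and 0.88), Tgfb1 by Kdelr2, Edf1 and Nucb1 (r = 0.87 each) and Tgfbr1 by Hmox2, Hsbp1 and Cyfip1 (r = 0.85 each).

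A list of 59 pathway genes, the 8 included, placed these values among their partners. In at least 1 class 42 of the 59 were measured, and 25 in all 6. The ligand genes Tgfb2, Tgfb3, Mstn and Nodal and the receptor Acvr2b were among the 17 measured in none. In CD4 conventional cells 27 of the other 51 genes were measured, of which 9 had an interval above 0, 10 an interval below 0 and 3 passed 1.5-fold, against 50.3% of all measured genes with an interval that excludes 0 and 5.81% past 1.5-fold. The median log2 ratio of the whole measured list was 0.02 in CD4 conventional, 0.13 in CD8, -0.06 in Treg and -0.11 in neutrophil cells, against 0.11 for all measured genes in CD8 cells and no further than 0.05 from 0 in the others.

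Among ligands, Inhba, the beta A chain of activin A, was higher in LYZKL myeloid cells. Macrophages and monocytes had 516 CPM in LYZKL (4410 UMIs in 455 of 832 cells) and 340 CPM in WTKL (2060 UMIs in 186 of 486 cells), a log2 ratio of 0.60 (interval 0.53 to 0.68). The interval lay above 0 in the Ear2 or Fabp4, C1q, and Saa3 or Cfb macrophages alike, the last with 688 CPM in LYZKL and 539 CPM in WTKL. Neutrophils had 112 CPM in LYZKL and 70.6 CPM in WTKL (log2 ratio 0.66, interval 0.46 to 0.86). Fst, follistatin, which binds and blocks activin, had 85 UMIs in LYZKL and 7 UMIs in WTKL macrophages and monocytes, in 16 and 5 cells, and 1 LYZKL cell held 25.9% of its UMIs.

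Smad4, the partner of Smad3, was higher in LYZKL in all 6 classes and in 18 of 18 subsets, with an interval above 0 in 12 of them. All subsets come from the same 2 libraries, and how many of all measured genes reach such a count was not computed. Smad4 was not recomputed within the window of 3000 to 8000 UMIs. Its levels were 61.6 CPM in LYZKL and 47.2 CPM in WTKL in CD4 conventional cells, 48.6 and 33.2 CPM in macrophages and monocytes and 90.7 and 53.0 CPM in neutrophils, where its log2 ratio of 0.78 passed 1.5-fold. Smad2, the other signal-carrying Smad, was lower in LYZKL CD4 conventional cells, at 42.0 CPM in LYZKL and 49.8 CPM in WTKL.

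Of genes listed for TGF-beta latency and activation, the integrin chain Itgav had 126 CPM in LYZKL and 82.8 CPM in WTKL CD4 conventional cells (log2 ratio 0.61, interval 0.53 to 0.69). The protease Furin had 429 and 316 CPM in the same cells (log2 ratio 0.44). The integrin chain Itgb8, which pairs with Itgav, was at 106 CPM in LYZKL and 140 CPM in WTKL Treg cells (log2 ratio -0.40, interval -0.58 to -0.22). In CD8 cells Furin was lower, with 63.0 CPM in LYZKL and 101 CPM in WTKL.

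In CD8 cells 8 of the 25 other listed genes measured passed 1.5-fold, 4 of them higher and 4 lower in LYZKL. Of all measured genes there, 10.8% passed 1.5-fold, and their median ratio was 0.11. Itgae, which TGF-beta is known to raise in CD8 cells, had 219 CPM in LYZKL and 107 CPM in WTKL (log2 ratio 1.03, interval 0.94 to 1.12). Of the 6 listed genes that TGF-beta raises in T cells, 4 were higher and 2 lower in LYZKL CD8 cells. The share of all measured genes that were higher was 66.4%. Itgae alone of the 6 passed 1.5-fold. The lower ones were Smad7, as given above, and Tgif1. Tgif1 had 108 CPM in LYZKL and 132 CPM in WTKL (log2 ratio -0.30). Tgfbr3, a co-receptor that presents TGF-beta, had 69.7 CPM in LYZKL and 38.6 CPM in WTKL. The CD8 classes differed in make-up, as the shares of naive-type cells above show. Within subsets, Itgae was at 269 CPM in LYZKL and 166 CPM in WTKL among cells with Xcl1 or Itga1, at 186 and 74.1 CPM among Gzmk-positive cells and at 42.7 and 41.5 CPM among naive-type cells.

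Id3, a target of bone morphogenetic protein and TGF-beta signals, was lower in LYZKL in all 6 classes and in 17 of 18 subsets, with an interval below 0 in 11 of them. The limits given for the subset count of Smad4 hold for Id3 too. Its level in macrophages and monocytes was 13.1 CPM in LYZKL and 34.8 CPM in WTKL (log2 ratio -1.41, interval -1.75 to -1.07). Treg cells had 7.77 CPM in LYZKL and 19.2 CPM in WTKL. T cell receptor constant genes were lower in LYZKL macrophages and monocytes as well, as given above for Tgfbr2, and their part in the Id3 value was not tested. Bambi, a decoy receptor without a kinase domain, was at 14.8 CPM in LYZKL and 36.6 CPM in WTKL neutrophils (log2 ratio -1.31, interval -1.71 to -0.92). Fkbp1a, which binds and restrains the type I receptor, was at 28.8 CPM in LYZKL and 46.9 CPM in WTKL neutrophils.

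**Figure D5:**
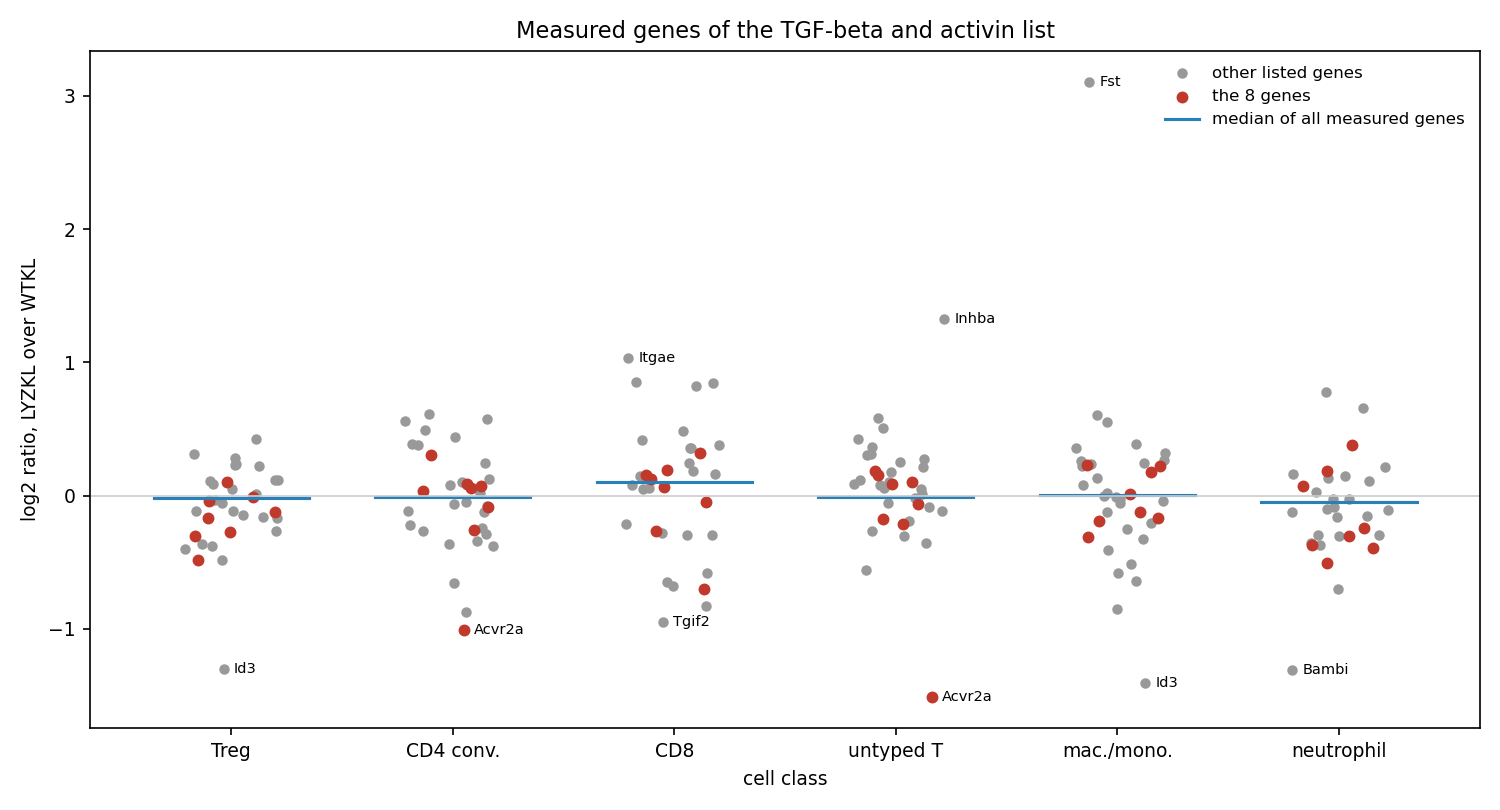
Log2 ratio of LYZKL over WTKL (y axis) of each measured gene of the 59-gene list in 6 cell classes (x axis), with the 8 genes in red, the others in grey and the median of all measured genes as a blue line. Acvr2a is the lowest listed gene in CD4 conventional (-1.01) and untyped T cells (-1.51), and Itgae is the highest in CD8 cells (1.03).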

How the data were processed

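The deposited matrices hold raw counts of UMIs by gene and barcode. The authors made them with Cell Ranger 6.1.2 and mm10, per the submitters' processing notes, from Chromium 3′ v3.0 libraries, per the labels' protocols. No barcode had fewer than 501 UMIs in LYZKL or 500 in WTKL. The other deposited files hold gene and barcode names. Gene positions are those of GENCODE vM21 on GRCm38, the assembly that mm10 names.

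Cells with at least 500 genes and at most 10% mitochondrially coded UMIs were kept, which removed 156 barcodes in LYZKL and 201 in WTKL. A lineage needed 3 UMIs of its markers and 3 times those of every other lineage. T cells with mixed subset markers, 857 in LYZKL and 694 in WTKL, were left out of subsets. These gates also removed some doublets, and removal of predicted doublets with Scrublet (scanpy 1.11.5) was an alternative. Sums of UMIs over a class in each library were divided by the class total. Intervals of levels are exact Poisson, of shares Clopper-Pearson and of ratios exact conditional binomial, all at 95%. Only those of ratios were tested on simulated data. The simulated counts were Poisson, as the interval assumes, so the test does not cover UMIs that cluster in single cells. TMM factors came from edgeR 4.0.16.

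The untyped T class was added after the gamma-delta gate was seen to hold few cells. The other genes named are the 3 highest and 3 lowest log2 ratios per class among listed genes of at least 30 CPM, and the 3 genes closest to each of the 8; 1 of these and some gate genes are not reported here. Acvr2b, Tgfb2, Tgfb3, Mstn, Nodal, Fst, Tmem173, Orc4 and values of the named genes by subset or in other classes were added after their values were seen. The 8 genes, the lists and the gates were chosen with earlier results of these data known.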

Additional observations from a re-analysis of the deposited data

Results flagged for a closer look

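4 genes had ratios on opposite sides of 0 in different cell classes, each with a counting interval that excludes 0. The difference between the classes was not tested, since each group is 1 library. For Tgfb1 the log2 ratio of LYZKL over WTKL was 0.31 in CD4 conventional cells and -0.50 in neutrophils, 0.81 apart. For Ski it was 0.32 in CD8 cells and -0.39 in neutrophils, 0.72 apart. Tgfbr2 had 0.20 in CD8 cells and -0.49 in Treg cells, 0.68 apart. Skil had 0.23 in macrophages and monocytes and -0.31 in Treg cells, 0.53 apart. Without the macrophage or monocyte cells that no sub-gate took, the Skil ratio in that class was 0.11 with an interval that spans 0, and among cells of 3000 to 8000 UMIs the Treg ratio was -0.13 with an interval that spans 0.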

How the results depend on the processing

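No paired analysis was possible because each group is 1 library. Without replicates, differences between mice cannot be separated from those between genotypes or treatments, and depth limits subsets under about 50 UMIs of a gene. Of 2448 log2 ratios of the 8 genes recomputed under 15 other settings, 2387 stayed inside the counting interval reported here and 111 changed sign. These totals pool unlike settings. A limit of 20% mitochondrially coded UMIs changed few cells, and all 184 of its values stayed inside. Among cells of 3000 to 8000 UMIs, 144 of 184 stayed inside and 34 changed sign. The count of genes past 1.5-fold kept its value in every class under every other setting of cells, gates and scaling except where cells were limited to 3000 to 8000 UMIs, a setting chosen after seeing the data, which gave 2 of 8 in macrophages and monocytes (Tgfbr2 at -0.79 and Smad7 at 0.94). There Ski in Ear2 or Fabp4 macrophages was at 1.66 in place of -0.67, over 8 cells in each library, and the cause was not tested. A looser fold, a log2 ratio of 0.32, gave 1 of 8 in Treg cells, against 26.4% of all measured genes, and 4 of 8 in neutrophils, against 31.4%. With that depth window the intervals of 8 of the 26 class values that excluded 0 came to span 0, among them Smad7 and Skil in Treg cells (0.01 and -0.13), Smad7 in CD4 conventional cells (0.02), and Tgfb1 and Tgfbr1 in macrophages and monocytes (-0.06 and -0.10). Acvr2a in CD4 conventional cells ranged from -1.04 to -0.94 and in untyped T cells from -1.62 to -1.35. Tgfbr2 ranged from -0.53 to -0.37 in Treg, from -0.26 to -0.17 in CD4 conventional and from 0.10 to 0.26 in CD8 cells. Smad3 in macrophages and monocytes was 0.18 and became -0.46 with equal subset weights. Thinning to 1000 UMIs gave Acvr2a shares of 2.49% in LYZKL and 5.90% in WTKL CD4 conventional cells.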
